A study of Mus musculus with 4 samples.

Results

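The 43 genes that build and run the mitotic spindle, the kinetochores and the condensed chromosomes were compared between young neurons and neural progenitor cells (NPCs) of the embryonic mouse cortex. The members were listed by gene symbol, with earlier results of these data already known, so the counts below are not from a blind list. All 43 were found among the 23240 rows of the gene count table, on 1 row each. All 43 passed the filter on low counts, with 195 counts for the lowest gene and library and 27773 for the highest.

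Neurons were cells with both Nestin-GFP and DCX-mRFP fluorescence, and NPCs were cells with Nestin-GFP fluorescence only. Both were sorted from cortices of embryonic day 15.5 embryos that carried both reporters, bred from heterozygous Nestin-GFP mice and homozygous DCX-mRFP mice, so the 2 groups shared genotype, tissue and age. In such reporters, regulatory sequence of the nestin gene (a progenitor filament gene) and of the doublecortin gene (a gene of newborn neurons) drives the fluorescent protein. Each group held 2 RNA-seq libraries, labelled as duplicates. The labels do not say whether duplicates came from separate litters, so the spread behind every p-value is that of these duplicates and may be technical only.

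Cells that divide assemble a spindle of microtubules and attach it to each chromosome at a kinetochore, a protein complex built on centromeric chromatin. The spindle checkpoint holds the cell in metaphase until every kinetochore is attached, and the anaphase-promoting complex (APC/C), a ubiquitin ligase, then opens the way to chromosome separation and cytokinesis. In the embryonic cortex, radial glia divide at the ventricular surface and intermediate progenitors divide further out, while neurons have left the cell cycle. Many genes of mitosis are transcribed mainly in the second part of the cycle, and a smaller number serve other roles outside mitosis as well.

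The libraries held 52611828 and 55329294 counts in neurons and 53533953 and 55615142 counts in NPCs. The genes behind the reporters moved as the sort would have it, which is a check of the labels and no finding. Dcx averaged 1399.8 ± 58.7 CPM (counts relative to library size, which was scaled with TMM factors) in neurons and 480.3 ± 17.4 CPM in NPCs (SD, n = 2 each), and Nes averaged 34.7 ± 2.4 CPM in neurons and 100.2 ± 3.5 CPM in NPCs. The defining markers of the labelled types were present, with all 11 radial glia markers lower in neurons and 9 of 10 pan-neuronal markers higher. By the same test, given below, 36.9% of all genes tested were lower in neurons and 35.8% were higher. All 6 markers of intermediate progenitors, which also divide, were lower in neurons as well (median log2 change -2.51). They summed to 545 to 560.5 CPM in neurons and 2737 to 2754 CPM in NPCs, and Eomes, which defines the type, averaged 142 ± 3.46 CPM in neurons and 614 ± 2.46 CPM in NPCs. Other cell types moved with the groups. The 10 endothelial markers summed to 9.45 to 9.69 CPM in neurons and 279.8 to 286 CPM in NPCs, 7 pericyte markers to 7.85 to 8.38 CPM in neurons and 226 to 231 CPM in NPCs, and 5 oligodendrocyte precursor markers to 2.85 to 3.58 CPM in neurons and 170.3 to 178 CPM in NPCs. All of these markers were lower in neurons, and none was at 0 in both neuron libraries. Cspg4, at 20.3 CPM in NPCs, is both a pericyte and an oligodendrocyte precursor marker here and is counted in both sums. The 9 microglia markers summed to 22.4 to 23.0 CPM in neurons and 47.3 CPM in both NPC libraries. The 8 erythroid genes summed to 249.7 to 258 CPM in neurons and 1546 to 1930.5 CPM in NPCs. Of these 8, 1 was at 0 in both neuron libraries. Hba-a1 and Hba-a2 each averaged 94.7 CPM in neurons and 682 CPM in NPCs, so the erythroid sums may count the same reads on both rows. The part of these cell types, intermediate progenitors included, in the results below was not tested. In sorted bulk samples, fewer cells with a transcript and less transcript per cell cannot be told apart.

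The design sets newborn neurons beside the progenitors from which they arise, here for the genes of cell division. Of the 43 mitotic genes, 41 were lower in neurons, 1 was higher and 1 did not pass, by edgeR's quasi-likelihood test at an adjusted p of 0.05. Across the 15292 genes tested, 72.6% passed, 36.9% as lower in neurons and 35.8% as higher. The median log2 change of the 43 genes was -1.91, beside -0.02 for all genes tested. A change of more than 2-fold, tested against that fold, was found for 39 of the 43 genes, all lower in neurons, while 14.3% of all genes tested passed that test as lower in neurons and 8.37% as higher. Both neuron libraries lay below both NPC libraries for 41 of the 43 genes, beside 44.0% of all genes tested, and above both for 2 genes, beside 41.9%.

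**Figure D1:**
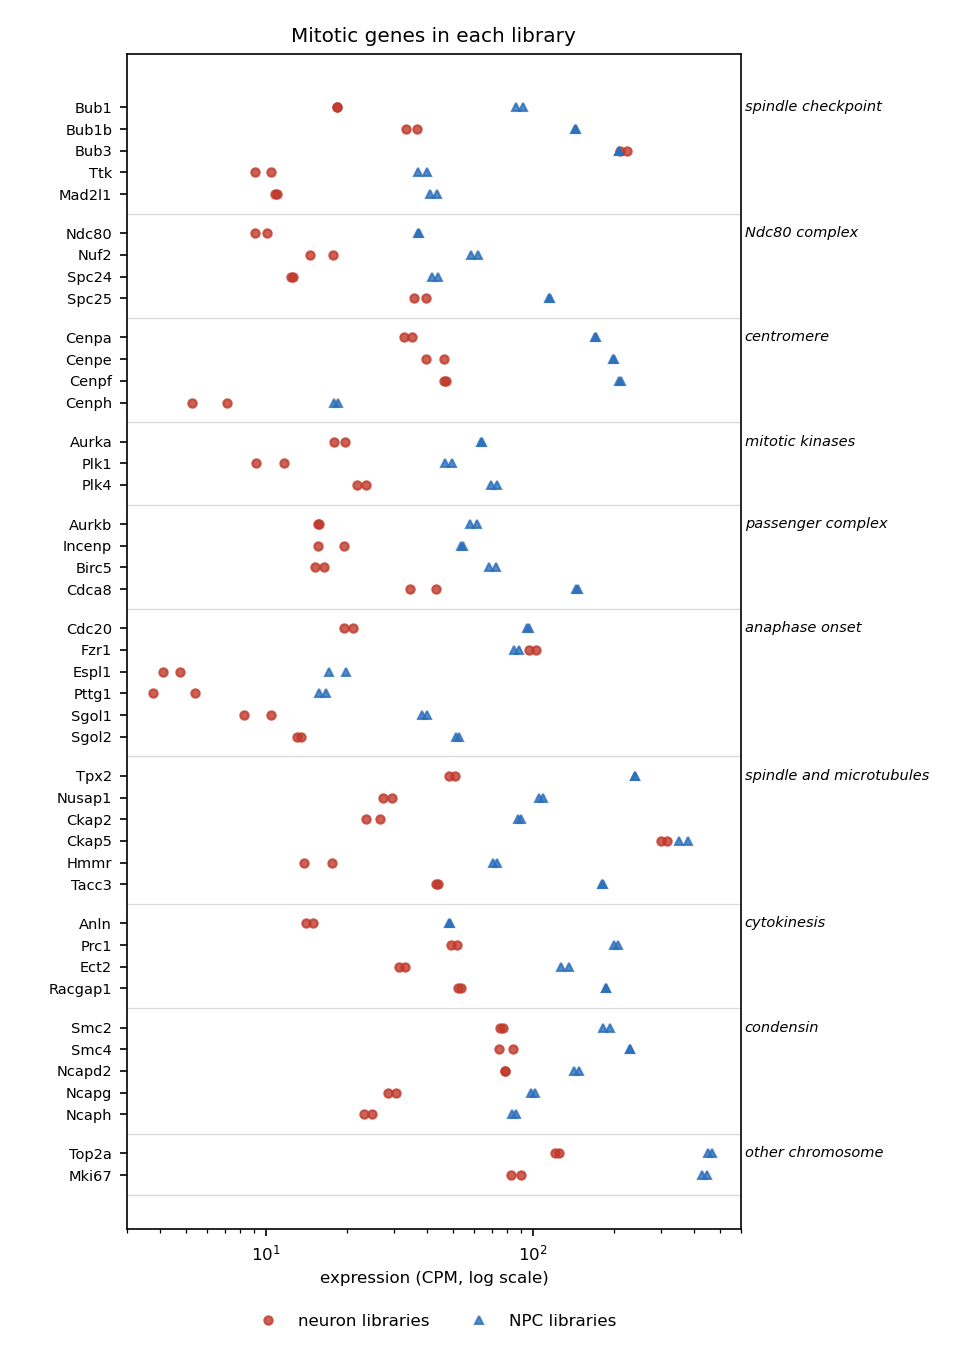
Expression of the 43 mitotic genes in each of the 4 libraries, as CPM on a log scale, with genes grouped by role, red circles for the 2 neuron libraries and blue triangles for the 2 NPC libraries. The neuron libraries lie to the left of the NPC libraries for 41 genes, and Bub3 and Fzr1 are the exceptions.

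The neuron level as a share of the NPC level fell in a narrow band for most genes. It lay between 20% and 30% for 31 of the 43 genes, below 20% for 2 (Mki67 and Cenpa), between 30% and 35% for 5, and between 35% and 60% for 2 (Smc2 and Ncapd2). In the other 3 genes, Ckap5, Bub3 and Fzr1, it was 85%, 104% and 115%. Mitotic messages were thus measured in the neuron libraries as well, and the lowest mean there was 4.43 CPM, for Espl1. The band also held markers of progenitor identity. The 11 radial glia markers had log2 changes from -2.98 to -1.53 (median -2.31), with Sox2 at 24.4%, Hes5 at 12.7% and Nes at 34.7% of the NPC level.

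**Figure D2:**
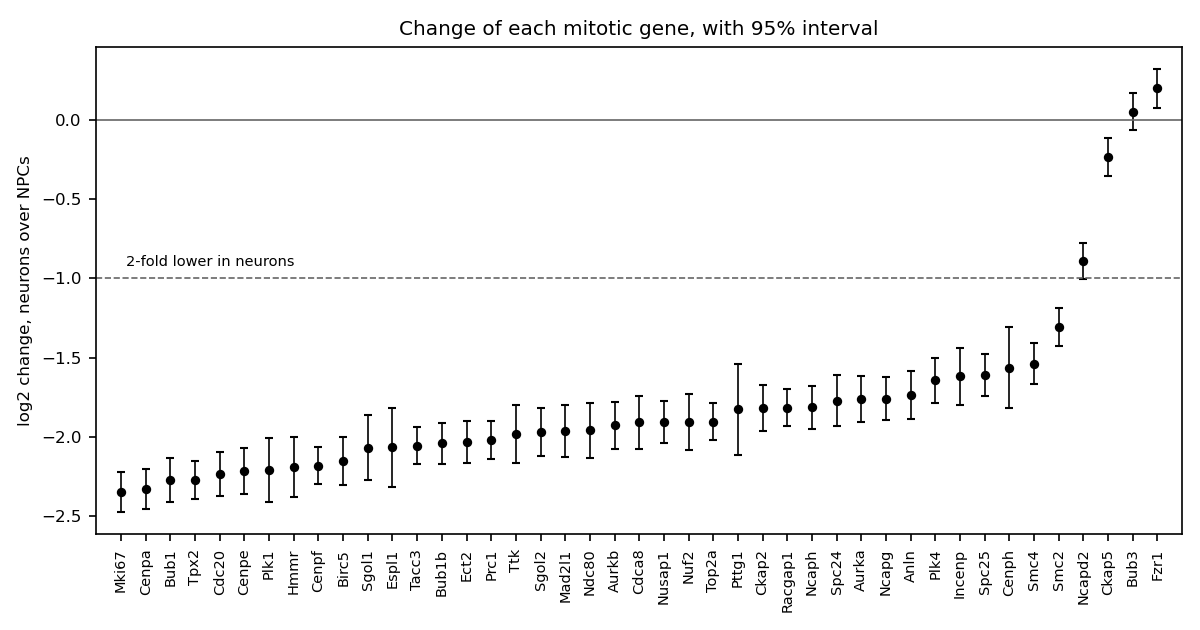
The log2 change of each of the 43 mitotic genes, neurons over NPCs, in order of size. Points are estimates from edgeR and bars are 95% intervals; 39 genes lie below the dashed line of a 2-fold change, Ncapd2 lies at -0.89, and Ckap5, Bub3 and Fzr1 lie near 0.

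Promoter sequence is shown for some of these genes because most of them moved together. Promoters of genes transcribed late in the cell cycle are known to share a cell cycle homology region (CHR), with the letters TTTGAA, and CCAAT boxes bound by the factor NF-Y, and genes of the G1 to S transition share E2F sites. RefSeq promoters of 300 bases (250 before and 50 after the start site, GRCm38.p6) were matched for 38 of the 43 genes, Sgol1 and Sgol2 under their current symbols Sgo1 and Sgo2a, giving 42 promoters. Tpx2, Aurkb, Smc4, Spc24 and Incenp had no entry. The search covered both strands, with TTTGAA for the CHR and CCAAT for the box, and motifs were allowed to overlap. The E2F strings were TTCCCGC plus variants of it that read TTGGCGC or TTCGCGC or TTGCCGC. The 150 bases that end at the start site are printed below, 5′ to 3′ on the gene's strand, with every match in capitals, including matches on the other strand, which read TTCAAA for the CHR and ATTGG for the box. They are the promoters whose CHR letters lie closest before the start site (Cdc20, Top2a, Espl1, Ncapg, Prc1 and Bub3), together with those of Fzr1 and Ckap5. Fzr1, Ckap5 and Bub3 were set to be printed as genes of the same machinery known to be used outside mitosis. The levels of these genes differed little between the groups.
Cdc20 (chr4:118437344-118437493, minus strand): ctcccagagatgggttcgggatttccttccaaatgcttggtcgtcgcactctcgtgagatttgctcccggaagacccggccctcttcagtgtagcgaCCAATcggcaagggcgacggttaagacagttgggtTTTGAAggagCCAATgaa
Top2a (chr11:99024190-99024339, minus strand): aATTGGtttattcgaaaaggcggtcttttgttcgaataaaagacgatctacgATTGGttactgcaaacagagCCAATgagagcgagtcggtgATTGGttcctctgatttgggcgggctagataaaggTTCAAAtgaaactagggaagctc
Espl1 (chr15:102296143-102296292, plus strand): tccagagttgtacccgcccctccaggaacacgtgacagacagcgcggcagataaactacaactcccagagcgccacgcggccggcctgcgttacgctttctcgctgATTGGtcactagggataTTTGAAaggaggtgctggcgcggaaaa
Ncapg (chr5:45669775-45669924, plus strand): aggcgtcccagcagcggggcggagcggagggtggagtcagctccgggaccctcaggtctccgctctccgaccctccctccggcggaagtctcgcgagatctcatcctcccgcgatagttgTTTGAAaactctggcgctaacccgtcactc
Prc1 (chr7:80294326-80294475, plus strand): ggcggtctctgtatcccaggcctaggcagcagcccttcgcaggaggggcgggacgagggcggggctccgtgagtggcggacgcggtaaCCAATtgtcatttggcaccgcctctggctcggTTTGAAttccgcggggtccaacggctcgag
Bub3 (chr7:131560220-131560369, plus strand): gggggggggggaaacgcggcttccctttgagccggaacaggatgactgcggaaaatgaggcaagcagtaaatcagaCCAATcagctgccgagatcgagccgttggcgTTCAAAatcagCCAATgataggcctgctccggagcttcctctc
Fzr1 (chr10:81378371-81378520, minus strand): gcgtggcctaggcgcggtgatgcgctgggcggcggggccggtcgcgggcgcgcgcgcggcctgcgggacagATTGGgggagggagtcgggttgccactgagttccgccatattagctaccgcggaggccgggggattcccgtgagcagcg
Ckap5 (chr2:91526612-91526761, plus strand): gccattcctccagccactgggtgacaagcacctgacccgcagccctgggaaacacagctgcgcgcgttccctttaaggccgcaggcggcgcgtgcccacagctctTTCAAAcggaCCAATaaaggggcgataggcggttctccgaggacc

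The CHR letters were found in 27 of the 42 mitotic promoters (64.3%), in 17.9% of all 32851 promoters of the same length and in 12.3% of the 15135 promoters of genes tested. CCAAT was found in 32 of the 42 (76.2%), against 37.4% of all promoters, and both motifs together in 25 (59.5%), against 6.95%. An E2F string was found in 11 (26.2%), against 9.57% of all promoters and 15.7% of those of genes tested. None of the 3 motifs was in the window for 5 of the 42 (Mad2l1, Nuf2, Birc5, Pttg1 and Nusap1), against 46.3% of all promoters. These matches describe the letters only. The median log2 change was -1.93 in the 24 genes that had the CHR letters and -1.94 in the 14 that did not. Whether the letters bear on the change was not tested. Bub3 and Ckap5, with log2 changes of 0.05 and -0.23, held both CHR and CCAAT letters close to the start site, as the printed lines show. The Fzr1 window held a CCAAT match and no CHR match.

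Genes of the spindle checkpoint fell in neurons in 4 of 5 cases. Bub1, a kinase that recruits checkpoint proteins to kinetochores, was at 18.3 CPM in both neuron libraries and at 86.2 and 91.1 CPM in the NPC libraries. This was 4.83-fold lower in neurons, a log2 change of -2.27 ± 0.07 (SE; edgeR adjusted p = 1.7e-14). Bub1b, which encodes the checkpoint protein BubR1, was at 36.6 and 33.5 CPM in neurons and at 144 CPM in both NPC libraries, a log2 change of -2.04 ± 0.06. The checkpoint kinase gene Ttk (Mps1) averaged 9.76 ± 0.96 CPM in neurons and 38.5 ± 2.08 CPM in NPCs. Mad2l1, which encodes the protein that binds and blocks Cdc20, averaged 10.9 ± 0.193 CPM in neurons and 42.4 ± 1.82 CPM in NPCs. Both neuron libraries lay below both NPC libraries for these 4 genes, as they did for 44.0% of all genes tested.

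Bub3, the binding partner that brings Bub1 and BubR1 to kinetochores, did not pass. It was at 225 and 211 CPM in neurons and at 209 and 210.3 CPM in NPCs, so the lower neuron library lay just above the NPC libraries. Its log2 change was 0.05 ± 0.05 (edgeR adjusted p = 0.38), with a 95% interval from -0.06 to 0.17. The direction depended on the scaling, at -0.15 with library size as the only scaling, when it passed as lower in neurons. Within each library, the ratio of Bub3 to Bub1 per kilobase of transcript was 12.3 and 11.5 in neurons and 2.43 and 2.31 in NPCs. The groups did not overlap in this ratio. An exact permutation test of 2 libraries against 2 cannot give a two-sided p below 0.333, and no other test of the ratio was run.

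All 4 subunits of the Ndc80 complex, the part of the kinetochore that holds microtubule ends, were lower in neurons. Ndc80 was at 10.1 and 9.07 CPM in neurons and at 37.1 and 37.4 CPM in NPCs, a log2 change of -1.96 ± 0.08. Nuf2, its partner at the microtubule end, averaged 16.1 ± 2.24 CPM in neurons and 60.4 ± 2.61 CPM in NPCs. At the other end of the complex, Spc24 and Spc25, which dock it to the inner kinetochore, had log2 changes of -1.77 ± 0.08 and -1.61 ± 0.06. The 95% intervals of Ndc80 (-2.14 to -1.79) and Spc25 (-1.74 to -1.47), the most and least negative of the 4, did not meet. The difference between these genes was not tested.

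Centromere genes were also lower in neurons, in 4 of 4 cases. Cenpa, the histone H3 variant that marks centromeres, was at 35.2 and 32.7 CPM in neurons and at 170.4 and 171 CPM in NPCs. Its 5.03-fold lower level in neurons (log2 change -2.33 ± 0.06, edgeR adjusted p = 4.7e-15) was the second most negative change among the 43 genes. Cenpe, a kinesin that carries chromosomes to the spindle equator, and Cenpf, a large kinetochore protein of the late cell cycle, had log2 changes of -2.22 ± 0.07 and -2.18 ± 0.06. Cenph, a subunit of the constitutive centromere network, was at 7.13 and 5.25 CPM in neurons and at 17.9 and 18.6 CPM in NPCs. Its log2 change of -1.56 ± 0.12 had one of the wider errors, at one of the lower levels of the list.

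The mitotic kinases and the chromosomal passenger complex, which corrects faulty attachments and later works at the midzone, fell as well. Plk1, the kinase that acts from mitotic entry to cytokinesis, was at 11.7 and 9.18 CPM in neurons and at 49.6 and 46.6 CPM in NPCs, a log2 change of -2.21 ± 0.09. Plk4, which starts the duplication of centrioles, averaged 22.8 ± 1.32 CPM in neurons and 71.2 ± 2.42 CPM in NPCs, a log2 change of -1.64 ± 0.07. Aurka, the kinase of spindle poles, averaged 18.8 ± 1.2 CPM in neurons and 64.0 ± 0.400 CPM in NPCs. In the passenger complex, the kinase gene Aurkb and the borealin gene Cdca8 had log2 changes of -1.93 ± 0.07 and -1.91 ± 0.08. The survivin gene Birc5 had the most negative change of the complex (-2.16 ± 0.07) and the scaffold gene Incenp the least negative (-1.62 ± 0.09). Incenp was at 15.6 and 19.5 CPM in neurons and at 54.4 and 53.5 CPM in NPCs.

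The genes of anaphase onset split between the coactivators of the APC/C. Cdc20, the coactivator that works in mitosis, was at 21.1 and 19.5 CPM in neurons and at 96.2 and 94.9 CPM in NPCs, a log2 change of -2.23 ± 0.06 (edgeR adjusted p = 1.9e-14). Fzr1, which encodes Cdh1, the coactivator of late mitosis and G1 that is also known to act in postmitotic neurons, was at 103 and 96.3 CPM in neurons and at 88.7 and 84.6 CPM in NPCs. Its log2 change was 0.20 ± 0.06 (edgeR adjusted p = 0.0052), and no other gene of the 43 was called higher in neurons. This call was lost in edgeR without NPC replicate 2 (0.17, adjusted p = 0.11) and with upper-quartile factors (0.10, adjusted p = 0.13), and the change was -0.01 with library size as the only scaling. Over all alternatives its adjusted p ran from 5.7e-06 to 0.91. Within a library, these scalings cancel. The ratio of Fzr1 to Cdc20 per kilobase was 2.86 and 2.89 in neurons and 0.541 and 0.523 in NPCs, so the coactivator with the higher level per length was Fzr1 in both neuron libraries and Cdc20 in both NPC libraries. As with Bub3, no test of this ratio was run.

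The remaining genes of this step were low and fell. Espl1, the separase that cuts cohesin, was at 4.75 and 4.11 CPM in neurons and at 17.1 and 19.9 CPM in NPCs. Its inhibitor securin, Pttg1, was at 5.41 and 3.78 CPM in neurons and at 16.8 and 15.7 CPM in NPCs, with a log2 change of -1.83 ± 0.13, the largest error of the list. The shugoshin genes Sgol1 and Sgol2, which protect centromeric cohesin, had log2 changes of -2.07 ± 0.10 and -1.97 ± 0.07. Both neuron libraries lay below both NPC libraries in these 4 genes, a pattern seen in 44.0% of all genes tested.

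Of 6 genes of spindle assembly and microtubules, all were lower in neurons and 5 passed the test against 2-fold. Tpx2, which activates Aurora A and starts microtubules near chromosomes, was at 50.8 and 48.5 CPM in neurons and at 239.9 and 239.8 CPM in NPCs, a log2 change of -2.27 ± 0.06 (edgeR adjusted p = 3.7e-15). Hmmr, a spindle and microtubule binding protein, averaged 15.7 ± 2.69 CPM in neurons and 71.8 ± 1.72 CPM in NPCs. Nusap1 and Ckap2, which bind and stabilise spindle microtubules, had log2 changes of -1.91 ± 0.06 and -1.82 ± 0.07.

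Tacc3 and Ckap5, whose proteins work together on spindle microtubules, differed in size of change. Tacc3 was at 43.9 and 43.3 CPM in neurons and at 182 and 180.3 CPM in NPCs, a log2 change of -2.06 ± 0.06. Ckap5, a microtubule polymerase also known from growing axons, was at 302 and 318 CPM in neurons and at 350.3 and 379 CPM in NPCs. The Ckap5 log2 change of -0.23 ± 0.06 (edgeR adjusted p = 0.0015) had a 95% interval from -0.36 to -0.11. That call was lost in edgeR without NPC replicate 2 (-0.18, adjusted p = 0.091), and over all alternatives the adjusted p ran from 7.5e-09 to 0.091. The ratio of Ckap5 to Tacc3 per kilobase was 3.0 and 3.20 in neurons and 0.836 and 0.915 in NPCs.

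Cytokinesis genes were lower in neurons in 4 of 4 cases, with log2 changes from -2.03 to -1.74. Ect2, the exchange factor that activates RhoA at the division plane, was at 33.0 and 31.3 CPM in neurons and at 127 and 136 CPM in NPCs. Prc1, which bundles the microtubules of the midzone, averaged 50.4 ± 1.65 CPM in neurons and 205 ± 5.32 CPM in NPCs. Racgap1, the subunit of the centralspindlin complex that recruits Ect2, had a log2 change of -1.82 ± 0.06. Anln, the anillin scaffold of the contractile ring, averaged 14.5 ± 0.655 CPM in neurons and 48.4 ± 0.321 CPM in NPCs.

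Mki67 and Top2a were among the members with the most counts. Mki67, which encodes the coat protein of mitotic chromosomes used as a marker of cycling cells, was at 89.7 and 82.4 CPM in neurons and at 430.0 and 446 CPM in NPCs. Its log2 change of -2.35 ± 0.06 was the most negative of the 43 genes. Top2a, the topoisomerase that untangles sister chromatids, was at 125 and 120.2 CPM in neurons and at 451 and 465 CPM in NPCs, a log2 change of -1.90 ± 0.06.

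Condensin I, the ring complex that compacts mitotic chromosomes, was lower in neurons in all 5 subunits, with a median log2 change of -1.54. The subunits Ncaph and Ncapg fell by 1.81 ± 0.06 and 1.76 ± 0.06 on the log2 scale. Smc4 and Smc2, the ATPase arms that condensin I shares with condensin II, fell by 1.54 ± 0.06 and 1.31 ± 0.06. Ncapd2, at 78.1 and 78.5 CPM in neurons and 143 and 148 CPM in NPCs, had a log2 change of -0.89 ± 0.05 (edgeR adjusted p = 1.9e-10) and did not pass the test against 2-fold. Its 95% interval (-1.01 to -0.78) did not meet that of Ncaph (-1.95 to -1.68). Both are subunits of condensin I only, with the least and most negative changes of the 5. The difference between these genes was not tested.

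Levels of the subunits could be set side by side per length, with the longest coding transcript of GENCODE M21 as the length. That annotation is newer than the authors' genome build, so these levels are approximate. Ncapd2 averaged 16.9 CPM per kilobase in neurons and 31.4 in NPCs, and Ncaph averaged 8.92 CPM per kilobase in neurons and 31.3 in NPCs. The pair thus lay together in NPCs and apart in neurons. Ncapg averaged 7.99 CPM per kilobase in neurons and 27.0 in NPCs. For the shared arms, the means were 14.1 CPM per kilobase in neurons and 34.8 in NPCs for Smc2, and 18.4 in neurons and 53.4 in NPCs for Smc4. The ratio of Ncapd2 to Ncaph was 1.83 and 1.97 in the neuron libraries and 1.00 in both NPC libraries.

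**Figure D3:**
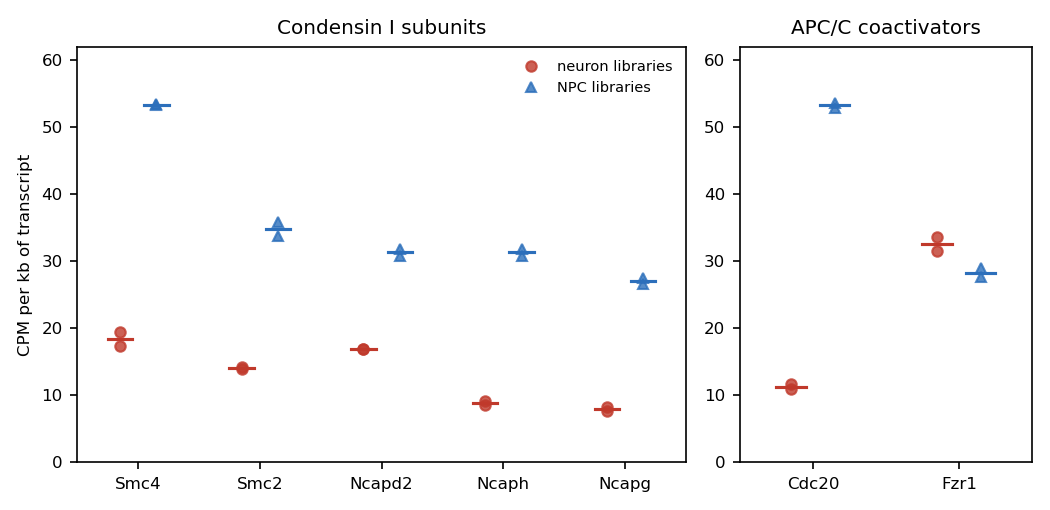
Level per length of the condensin I subunits (left) and of the APC/C coactivators (right), in CPM per kilobase of the longest coding transcript, with red circles for the 2 neuron libraries, blue triangles for the 2 NPC libraries and short lines for the means. Ncapd2 and Ncaph lie apart in neurons and together in NPCs, and Fzr1 lies above Cdc20 in neurons and below it in NPCs.

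Other genes of the machinery were described by their counts and medians. Across all genes tested, 36.9% were called lower in neurons and 35.8% higher, and 14.3% were past 2-fold and lower. All 12 mitotic kinesins were lower in neurons and past 2-fold (median log2 change -2.06), among them Kif11, the motor that pushes spindle poles apart, at 46.4 ± 2.05 CPM in neurons and 192 ± 5.15 CPM in NPCs. In the inner kinetochore, 14 of 17 genes were lower and 1 was higher in neurons (median -1.26), with 0 higher with library size only. That count of higher genes also moved without neuron replicate 1. Cenpi of the centromere network had a log2 change of -2.15 ± 0.09, and the Cenpa chaperone gene Hjurp had one of -0.89 ± 0.06. The inner kinetochore genes Cenpb and Cenpc1, picked out after their values were seen, had log2 changes of -0.01 ± 0.10 and -0.01 ± 0.06 and did not pass, and Cenpt, likewise, was the 1 gene called higher (0.34 ± 0.06).

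Outside the Ndc80 complex, 7 of 9 outer kinetochore genes were lower in neurons and 1 was higher (median -1.68). Dsn1 and Casc5 (Knl1), of the platform on which the Ndc80 complex stands, had log2 changes of -2.11 ± 0.09 and -2.01 ± 0.07. Zwint was the 1 gene higher, at 0.14 ± 0.05, and no gene of this list was called higher with upper-quartile factors, with library size only, with the filter of 5 CPM or without either NPC replicate. Of 7 other checkpoint genes, 6 were lower and 1 higher (median -0.89), with 0 higher with library size only. Kntc1 and Spdl1 (Ccdc99 in the table), which bring dynein and checkpoint proteins to kinetochores, had log2 changes of -2.18 ± 0.08 and -2.16 ± 0.10, and their partner Zw10 had one of -0.60 ± 0.06. Among 8 other cytokinesis genes, 6 were lower and 1 higher (median -1.37). The 8 include Kif23, which is also counted among the mitotic kinesins. The abscission gene Cep55 had a log2 change of -2.27 ± 0.07, and Tsg101, an ESCRT gene also used in membrane traffic, had one of 0.60 ± 0.06.

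The 12 subunits of the APC/C did not move with its mitotic coactivator Cdc20. Of these, 2 were lower and 3 higher in neurons and 7 did not pass, with log2 changes from -0.30 to 0.27. Their median was -0.02, while their mean was on the other side of 0 at 0.003. These counts moved with the scaling and with single libraries. With library size as the only scaling 9 were lower and 0 higher, with upper-quartile factors 4 were lower and 1 higher, and with the filter of 5 CPM 4 were lower and 2 higher. Without a filter, 1 was lower and 3 were higher. Without NPC replicate 1, 0 were lower and 3 higher, and without NPC replicate 2, 1 was lower and 1 higher. Anapc5 had a log2 change of 0.27 ± 0.06 and Anapc13 one of -0.30 ± 0.08. By contrast, all 3 APC/C regulators were lower in neurons (median -1.80), with Ube2c, its ubiquitin-conjugating enzyme, at -1.95 ± 0.07 and the inhibitor gene Fbxo5 (Emi1) at -1.80 ± 0.08. Ube2s, which extends ubiquitin chains, was at -0.30 ± 0.05.

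Cohesin and condensin II showed smaller medians than condensin I. Of 12 cohesin genes, 8 were lower and 1 higher (median -0.27), with 0 higher with library size only. Esco2 and Cdca5 (sororin), which lock cohesin onto sister chromatids after replication, had log2 changes of -2.03 ± 0.08 and -2.01 ± 0.10. The ring subunit Smc3 was at -0.06 ± 0.06 and was among 3 cohesin genes that did not pass. Other core cohesin genes, picked out after their values were seen, were called lower. These were Smc1a (-0.19 ± 0.05), Rad21 (-0.64 ± 0.06), Stag1 (-0.35 ± 0.06) and Stag2 (-0.76 ± 0.06). All 3 subunits particular to condensin II were lower, with Ncapg2 at -1.71 ± 0.07, Ncapd3 at -0.59 ± 0.06 and Ncaph2 at -0.34 ± 0.05. Among 15 genes of augmin and the gamma-tubulin complex, which start spindle microtubules, 10 were lower and 1 higher (median -0.25). With upper-quartile factors and with library size only, 0 of them were higher. Their count of higher genes also moved without NPC replicate 2 and without neuron replicate 2. Their attachment factor Nedd1 was at -1.62 ± 0.07 and the ring complex subunit Tubgcp3 at -0.22 ± 0.06. Past 2-fold and lower were 2 of the 12 cohesin genes and 1 of the 15 augmin and gamma-tubulin genes, beside 14.3% of all genes tested. Differences between these lists and the 43 mitotic genes were not tested.

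**Figure D4:**
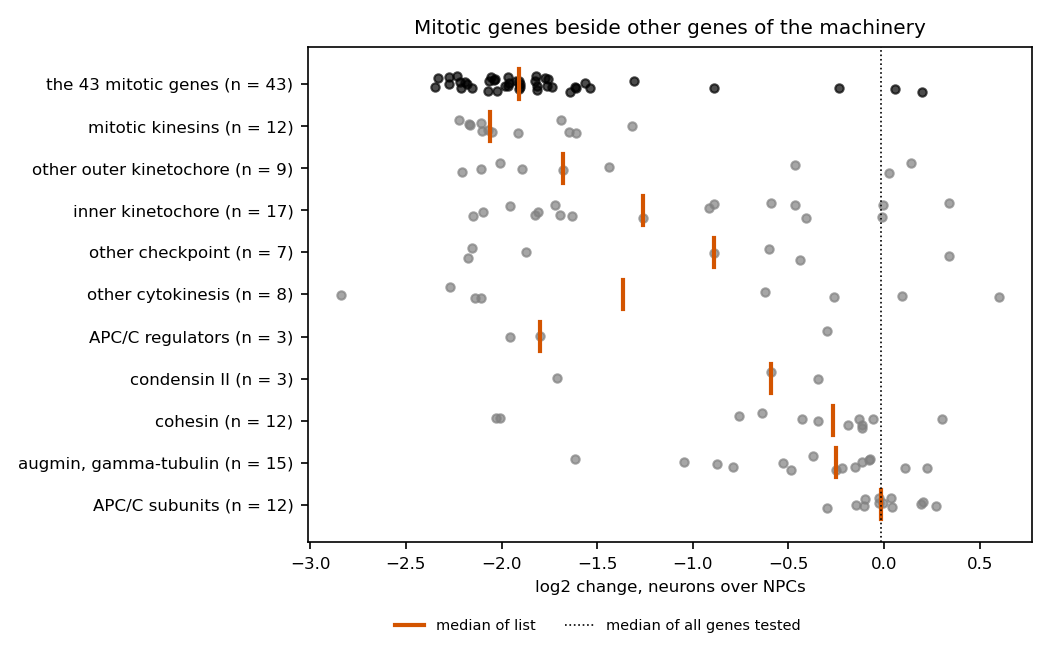
Log2 changes, neurons over NPCs, of the 43 mitotic genes and of 10 lists of other genes of the same machinery, with a point for each gene, orange lines for list medians and a dotted line for the median of all genes tested. The kinesins lie with the mitotic genes, at a median of -2.06, and the APC/C subunits lie at -0.02.

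Some rows may hold reads of a neighbour, because the counting is not known to have used strand. In GENCODE M21, exons of 8 of the 43 genes overlap those of a protein-coding gene on the other strand. The longest overlaps were those of Sgol2 with Kctd18 (2358 bases), Ncapg with Lcorl (699 bases) and Prc1 with Rccd1 (670 bases). Shorter overlaps concerned Tacc3 with Tmem129, Nusap1 with Oip5, Cdca8 with 9930104L06Rik, Cdc20 with Elovl1 (53 bases) and Fzr1 with Mfsd12 (4 bases). The neighbours with the long overlaps were not lower in neurons to the extent of the mitotic genes, with Kctd18 at 29.2 CPM in neurons and 20.7 CPM in NPCs and Lcorl at 98.5 CPM in neurons and 78.9 CPM in NPCs. Elovl1 and Oip5 had log2 changes of -1.90 and -1.63. The values of these 8 genes are uncertain to that extent, and the part of the neighbours was not tested. No other row of the table had counts within 2 of a mitotic gene in every library.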

How the data were processed

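RNA-seq was done on sorted cells of the mouse cortex, 2 neuron and 2 NPC libraries, grouped by their titles. TRIzol was used for the RNA and an Illumina TruSeq kit for the libraries, per the labels' protocols. The authors deposited 1 table of estimated counts that carries no scaling. The smaller values, 88416 in number, were each a whole multiple (within 0.01) of 1 base of a 101-base read. CASAVA 1.9, TopHat 1.2.0, SAMtools 0.1.18 and build mm9 are named in the submitters' processing notes with no roles. How reads were counted, with which annotation and with or without strand, is not given in the sources used here.

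Counts were rounded. filterByExpr left 15292 genes, and neurons were compared with NPCs by edgeR 4.0.16 (R 4.3.3) with TMM factors of 0.928 and 0.933 in neurons and 1.08 and 1.07 in NPCs, a quasi-likelihood F test, two-sided and unpaired, Benjamini-Hochberg adjustment over all genes tested and a threshold of 0.05. SE was derived from the log2 change and F. glmTreat tested for changes over 2-fold. Duplicates differed by more than sampling noise (mean chi-square per gene 13.6 in neurons and 4.53 in NPCs) and were kept separate. Counts were simulated for this comparison over 15292 genes, with 50 genes changed at each fold and no others. The calls recovered 26 of 50 genes at 1.25-fold, 40 of 50 at 1.5-fold and 49 of 50 at both 2-fold and 4-fold. Of 170 calls, 6 were false. Every simulated gene had the same biological variation, and far fewer genes changed than the 72.6% that passed in the data. The recovery and the false calls therefore need not hold for the calls above. Alternatives were DESeq2 size factors, upper-quartile factors, library size alone, no filter, a filter of 5 CPM in 2 libraries, the DESeq2 1.42.0 Wald test, limma-voom (3.58.1), a replicate block and leaving out each library. Calls in the other lists were not counted under the Wald test or limma-voom. Members and lists were chosen with earlier results of these data known. All members could be named, and of each other list the 2 genes with the smallest p and the 1 with the highest mean, not all of them printed. Inner kinetochore and cohesin genes named outside this rule are marked where they appear.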

Additional observations from a re-analysis of the deposited data

How the results depend on the processing

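The other 40 mitotic genes, all but Bub3, Ckap5 and Fzr1, kept their direction and their call in all 12 alternatives, which gave 480 values. Their log2 changes ran from -2.56 to -0.86, with an adjusted p of at most 3.9e-08. Bub3 was reversed under upper-quartile factors (-0.047) and by library size alone (-0.15), and passed without neuron replicate 2 (0.11). Fzr1 was reversed by library size alone (-0.0074). The cause was not tested. The members called higher in neurons were 0 under upper-quartile factors and 0 by library size alone, and 0 to 2 when 1 library was left out. The median of the 43 genes was -2.01 with upper-quartile factors, -2.12 with library size only and -1.98 to -1.87 when 1 library was left out. Upper-quartile factors and library size alone moved the median of all genes tested from -0.02 to -0.12 and -0.23, and relative to it the 43 genes stayed at -1.89 under these scalings. Of all calls, 49.2% were higher in neurons with TMM, 41.2% with upper-quartile factors and 33.5% with library size only. Other genes of the machinery called higher in neurons were 5 with upper-quartile factors, 1 with library size only and 5 to 11 when 1 library was left out, beside 9. With 1 library left out, the lone sample of a group is assumed to vary like the other group. Whether duplicate numbers pair the libraries is not given. Deviations of same-numbered libraries had a correlation of 0.02 over genes, and the replicate block gave 41 mitotic genes lower and 1 higher and a median of -1.92. The ratios within a library were not tested.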
